A study of Mus musculus with 4 samples.

Results

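Blood vessel endothelium was followed through 9 genes, Pecam1, Cdh5, Kdr, Flt1, Tek, Tie1, Emcn, Eng and Vegfa, chosen by their gene name on the array, out of 27594 genes with a value. They were measured with 19 probes in the ilium, femur, maxilla and mandible of male C57BL/6 mice aged 35 days, with 1 single-colour Agilent whole mouse genome array per bone. The mice carried no stated transgene or treatment, and the sources do not state how many animals gave each RNA. The study set jaw bones (maxilla and mandible) beside bones of the trunk and limbs (ilium and femur). In this text the bone is the unit, with 2 bones in each class, so a p-value reflects how far bones of 1 class lie apart and not how far animals do.

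Endothelial cells line every blood vessel. VEGF-A, a ligand made largely by the cells around a vessel, acts through the receptor tyrosine kinases VEGFR2 (Kdr) and VEGFR1 (Flt1), of which Kdr carries most of the growth signal and Flt1 binds the ligand tightly and can limit it. The angiopoietin receptor Tie2 (Tek) and its partner Tie1 keep vessels stable, VE-cadherin (Cdh5) and PECAM-1 (Pecam1) join neighbouring endothelial cells, endoglin (Eng) is a co-receptor for the TGF-beta family, and endomucin (Emcn) is a sialomucin of the vessel surface. In bone, endomucin and PECAM-1 together mark the capillaries near sites of bone formation, and marrow is drained by wide, leaky sinusoids.

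The bases before the gene start were read for the receptor and ligand genes from RefSeq (assembly GRCm38.p6), and 4 windows of 250 bases are shown because they belong to the ligand, its receptor Flt1, the angiopoietin partner Tie1, and Emcn, the gene whose values stood apart from the rest. The windows were chr17:46032378-46032627, minus strand for Vegfa, chr5:147726012-147726261, minus strand for Flt1, chr4:118489850-118490099, minus strand for Tie1 and chr3:137340828-137341077, plus strand for Emcn. Each is written 5′ to 3′ on the gene's strand, and capitals mark a motif on either strand. In the windows of Flt1, Tie1 and Emcn the motif is AGGAAG, the core bound by ETS factors. In the Vegfa window it is AGATAA, which is bound by factors of the GATA family.
Vegfa: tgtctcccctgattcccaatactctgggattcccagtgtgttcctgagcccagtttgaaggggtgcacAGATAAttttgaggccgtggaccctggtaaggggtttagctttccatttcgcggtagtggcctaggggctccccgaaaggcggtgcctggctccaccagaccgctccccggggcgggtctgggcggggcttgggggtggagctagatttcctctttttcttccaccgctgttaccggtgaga
Flt1: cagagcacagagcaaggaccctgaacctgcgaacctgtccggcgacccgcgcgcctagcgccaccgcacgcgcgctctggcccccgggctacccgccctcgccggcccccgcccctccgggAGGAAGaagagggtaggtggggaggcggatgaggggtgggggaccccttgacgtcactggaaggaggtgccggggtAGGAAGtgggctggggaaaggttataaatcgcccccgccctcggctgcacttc
Tie1: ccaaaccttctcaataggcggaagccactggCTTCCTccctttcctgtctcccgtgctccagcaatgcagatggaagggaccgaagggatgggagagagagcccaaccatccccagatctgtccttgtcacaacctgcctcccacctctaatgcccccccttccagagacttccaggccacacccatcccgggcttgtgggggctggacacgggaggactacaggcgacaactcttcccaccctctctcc
Emcn: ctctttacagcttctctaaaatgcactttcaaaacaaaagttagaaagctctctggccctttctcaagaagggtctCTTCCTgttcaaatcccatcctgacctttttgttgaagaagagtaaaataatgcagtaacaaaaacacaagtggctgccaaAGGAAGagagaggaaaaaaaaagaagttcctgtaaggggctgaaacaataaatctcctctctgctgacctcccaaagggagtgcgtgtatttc

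AGGAAG was present in the windows of Flt1 (2 matches), Tie1 (1), Emcn (2) and Eng (2), and not in those of Kdr, Tek or Vegfa. Only these letters were searched, so other forms of ETS site, including shorter ones, were not counted in any window. Of the 9 genes 7 matched the RefSeq table, with 8 windows because Vegfa had 2, and 4 of the 8 windows held AGGAAG, against 29.5% of the 32851 windows of that length in the table. AGATAA was present in 1 of the 8, the Vegfa window printed above, against 9.99% of all windows. ACGTG, the core of the hypoxia response element, was present in 1 of the 8, the other Vegfa window, against 16.6%. That window (chr17:46025164-46025413, minus strand) precedes another listed start and lies downstream of the start that follows the printed Vegfa window. Its match is therefore inside the longer gene and not upstream of it. No printed window held more than 1 of these motifs, so no matches of different motifs overlapped. A match describes letters only.

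All 4 arrays lay on 1 slide and had 1 scan time, so position on the slide and bone cannot be told apart. Between 72.83% and 75.48% of 43379 spots were well above background on each array, and 0 spots were saturated. The maxilla array was the dimmest before scaling. Its 75th percentile signal was 809, against 1142 in the ilium, 1208 in the femur and 1142 in the mandible. Its median signal was 121, against 130, 140 and 143. The part of this in the maxilla levels was not tested. The number of arrays limits the precision. Levels are log2 of the processed signal after division by the array's 75th percentile, so 0 is the level of that percentile and 1 unit is 2-fold. A level applies to its own probe, and levels of different genes are not set against each other. All 9 genes were above background on all 4 arrays with the probe used. The same held for 20 of 20 further pan-endothelial genes (among them Vwf, Robo4, Esam, Sox17 and Erg) and for 18404 of the 20616 genes tested. Endothelial transcripts were thus measured in every bone, as were those of most genes tested.

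The maxilla had the lowest level of the 4 bones for 8 of the 9 genes, and Emcn was the exception. The mandible, the other jaw bone, had the highest level for 5 of them (Cdh5, Flt1, Tek, Emcn and Vegfa) and stood within the range of the ilium and femur or slightly below it for the rest. None of the 9 genes differed between jaw bones and trunk and limb bones by limma. Over the 20616 genes tested, the maxilla was lowest for 34% and the mandible highest for 27%. In bulk samples fewer endothelial cells and less RNA per cell cannot be told apart.

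**Figure D1:**
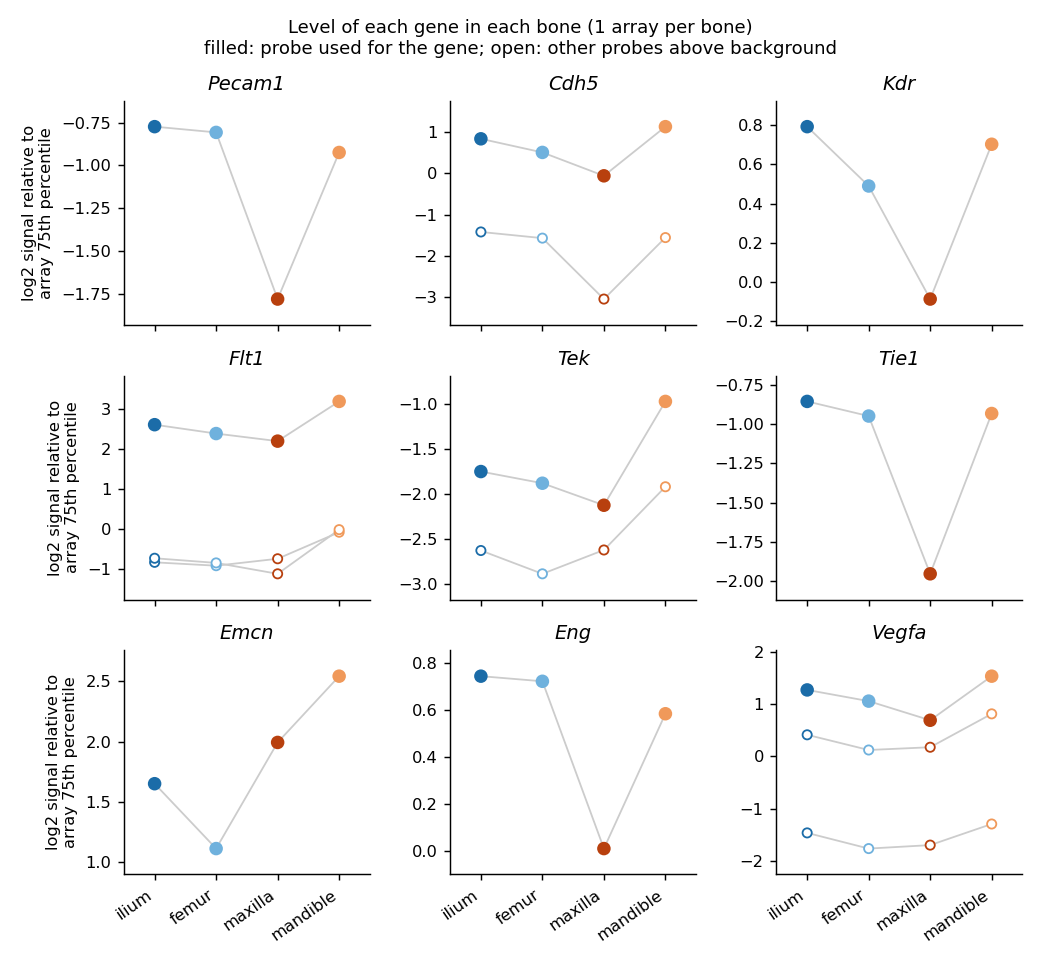
Log2 level against the array's 75th percentile (vertical axes, scaled separately for each gene) in the ilium, femur, maxilla and mandible, 1 array each. Filled points are the probe used for the gene and open points its other probes above background on all 4 arrays; grey lines join the points of a probe and do not mark an order. The filled maxilla point is the lowest in every panel but that of Emcn.

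The ligand gene Vegfa had levels of 1.27 in the ilium, 1.06 in the femur, 0.69 in the maxilla and 1.53 in the second jaw bone, the mandible. The jaw bones lay on both sides of the trunk and limb bones. The difference between the class means, jaw minus trunk and limb, was -0.052 ± 0.37 (SE, 2 bones per class; limma adjusted p = 0.934), with a 95% interval from -1.10 to 1.00. Its 3 probes (chromosome 17, minus strand; all probe positions are on mm8) did not give the same order: the maxilla was lowest with the probe at 45481019 to 45481078, which was the brightest and is the one used, and the femur was lowest with the other 2. The probe at 45482144 to 45482203, printed in 10 spots, read 0.41, 0.12, 0.17 and 0.81 in ilium, femur, maxilla and mandible. All 3 probes were highest in the mandible.

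Kdr, the main signalling receptor for VEGF-A, stood at 0.79 in the ilium, 0.49 in the femur, and -0.088 (maxilla) and 0.70 (mandible) in the jaw. Its probe (chromosome 5, 76214981 to 76215040, minus strand) was printed in 10 spots, whose SD within an array was 0.0668 to 0.112, so the drop of 0.79 from mandible to maxilla exceeded the spread of the spots, which is technical. The class difference was -0.33 ± 0.36 (limma adjusted p = 0.555). The mandible lay between the ilium and the femur, so the low jaw mean came from the maxilla.

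Flt1 was 2.61 in the ilium, 2.39 in the femur, with 2.20 in the maxilla and 3.20 in the mandible, so the jaw bones lay on both sides of the others. Its class difference was 0.20 ± 0.42 (limma adjusted p = 0.766). A neighbouring probe (chromosome 5, 147872637 to 147872696, minus strand; the one used lies at 147872564 to 147872623) gave -0.74, -0.86, -1.13 and -0.022 in the same order of bones. A probe about which the array annotation cites a different transcript (147948554 to 147948613) gave -0.84, -0.93, -0.75 and -0.086. The mandible was thus highest with all 3 probes above background, while the maxilla was lowest with 2 of them. The 2 remaining Flt1 probes were above background on 1 array and on no array.

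The junction gene Cdh5 stood at 0.83 in the ilium, 0.51 in the femur, and -0.060 (maxilla) and 1.13 (mandible) in the jaw. This drop of 1.19 from mandible to maxilla was more than 2-fold. The class difference was -0.14 ± 0.49 (limma adjusted p = 0.863). A second probe (chromosome 8, 107032728 to 107032787, plus strand; the one used is at 107033388 to 107033447) read -1.42, -1.57, -3.04 and -1.55, again lowest in the maxilla, but with the mandible level with the femur.

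Pecam1, the other junction gene, had nearly equal levels in the ilium (-0.77) and femur (-0.81), a lower one in the maxilla (-1.78) and -0.92 in the mandible. Both jaw bones were below both trunk and limb bones, with the mandible only 0.12 below the femur. Its probe (chromosome 11, 106497165 to 106499018, minus strand) had 10 spots, and their SD was 0.0576 to 0.0888 within an array. The class difference was -0.56 ± 0.36 (limma adjusted p = 0.350), which does not pass the threshold of 0.05. A second Pecam1 probe was dim, at -5.40 in the ilium and -4.51 in the femur, and in the jaw it was not well above background.

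Tek, which encodes Tie2, read -1.75 in the ilium, -1.88 in the femur, with -2.12 in the maxilla and -0.97 in the mandible. Its partner Tie1 read -0.85, -0.95, -1.96 and -0.93 in the same bones. The pair thus shared the low maxilla, but Tek was raised in the mandible above all other bones while Tie1 was level there with the femur (a difference of 0.016). The class differences were 0.27 ± 0.46 for Tek (limma adjusted p = 0.715) and -0.54 ± 0.42 for Tie1 (limma adjusted p = 0.421). The probes lie on chromosome 4, at 94366188 to 94366246 (plus strand) for Tek and 117969459 to 117969518 (minus strand) for Tie1. A second Tek probe (94233814 to 94233873, plus strand) was lowest in the femur (-2.89), with -2.63 in the ilium, -2.62 in the maxilla and -1.92 in the mandible.

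Eng stood at 0.75 in the ilium, 0.72 in the femur, and 0.0085 (maxilla) and 0.58 (mandible) in the jaw. Both jaw bones were below both others, and the class difference was -0.44 ± 0.28 (limma adjusted p = 0.347; probe on chromosome 2, 32503799 to 32503858, plus strand).

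Emcn, the sialomucin of bone capillaries and veins, ran the other way. It read 1.65 in the ilium, 1.11 in the femur, with 1.99 in the maxilla and 2.54 in the mandible, so that both jaw bones were above both trunk and limb bones. The class difference was 0.89 ± 0.34, or 1.85-fold, with a 95% interval from -0.076 to 1.85 and a limma adjusted p of 0.166, so it was not called. Emcn was represented by 1 probe (chromosome 3, 137368234 to 137368293, plus strand).

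Limma thus called 0 of the 9 genes lower in the jaw bones and 0 higher, with 0 at an unadjusted p under 0.05; of all genes tested 7.25% were called lower and 4.51% higher, and 34.4% had an unadjusted p under 0.05. The 95% intervals reached from -1.74 (Tie1) to 1.85 (Emcn), so a 2-fold change of the class mean in at least 1 direction was within the interval for each of the 9 genes. The median class difference was -0.14, against -0.027 over all genes tested, and 6 of 9 differences were negative. With median centring it was -0.39 against -0.28 over all genes, and with means over the probes of a gene it was -0.33, where Pecam1, including its dim probe, was -1.12 (limma adjusted p = 0.114). Without overlap between the classes, Pecam1 and Eng were lower in the jaw (2 of 9, against 36.3% of all genes) and Emcn higher (1 of 9, against 31.9%). Neither share exceeded that of all genes.

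**Figure D2:**
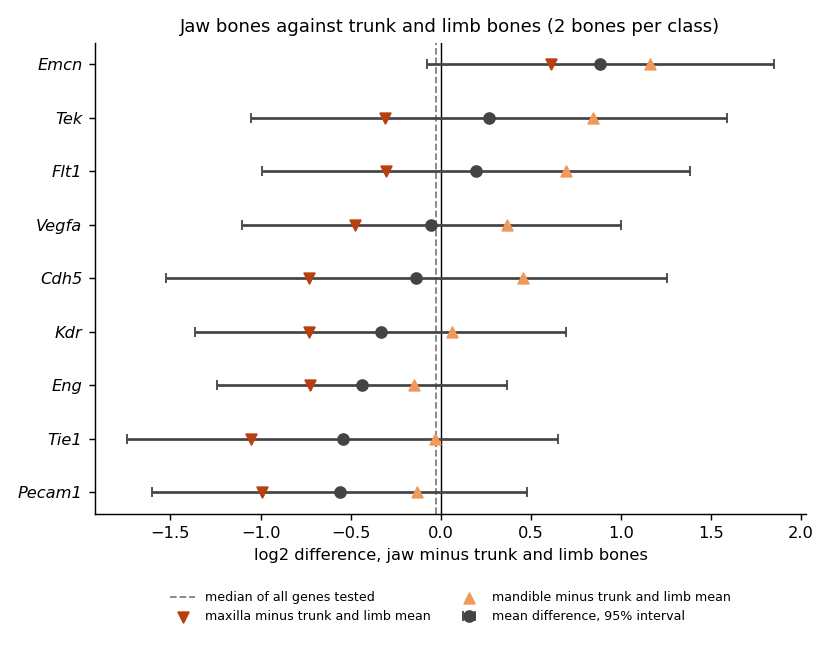
Jaw minus trunk and limb log2 difference of each gene (horizontal axis); dark points are the class difference with its 95% interval from limma, and triangles are the maxilla and the mandible each minus the mean of ilium and femur. The dashed line is the median of all genes tested, -0.027. Every interval crosses 0, and the maxilla triangle lies left of the mandible triangle for all 9 genes.

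The error behind these intervals pools the distance between the jaw bones with that between the ilium and femur. The jaw distance was the larger for each of the 9 genes, by little for Emcn. The few degrees of freedom widen every interval as well. The maxilla was below the mandible for 9 of 9 genes, by 0.55 (Emcn) to 1.19 (Cdh5), with a median difference of -0.86 against -0.070 over all genes tested, of which 54.5% were lower in the maxilla. The gap was at least 2-fold for Cdh5, Tek and Tie1, 3 of 9, against 8.44% of all genes. The same order held for all 15 of the probes above background on every array, of which 10 were lowest in the maxilla and 10 highest in the mandible. The ilium and femur differed by 0.022 (Eng) to 0.54 (Emcn), and 0 of 9 genes differed by 2-fold between them, against 4.19% of all genes. With 1 array per bone these differences have no test.

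The signs and the median of the 9 differences therefore depended on which jaw bone was taken. The share of the 9 called lower with the maxilla alone was close to that of all genes. With the maxilla as the only jaw bone, 8 of 9 differences were negative, their median was -0.73, and limma called Pecam1 (-0.99, adjusted p = 0.0291) and Tie1 (-1.06, adjusted p = 0.0271) lower. That is 2 of 9, in a fit that called 20.2% of all genes lower. With the mandible as the only jaw bone, 3 of 9 differences were negative, the median was 0.37, and 0 of the 9 genes were called in either direction, in a fit that called 15.5% of all genes lower and 14.4% higher. At an unadjusted p under 0.05 there were 3 of the 9, below the 46.3% of all genes. In these fits the lone jaw array is assumed to vary like the trunk and limb bones.

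Skeletal muscle markers moved with the maxilla. All 7 (among them Acta1, Ckm and Myh4, of muscle fibres) were lowest in the maxilla, against 34% of all genes tested. Their levels were summed on the linear scale, as multiples of the array's 75th percentile. The sum was 731 in the ilium, 729 in the femur, and 126 (maxilla) and 557 (mandible) in the jaw. Stratified epithelium markers were low in the ilium and femur (sums of 0.601 and 0.64) and high in the maxilla and mandible (90.3 and 119). Limma called 7 of 7 higher in the jaw, against 4.51% of all genes tested. The part of either list in the endothelial values was not tested.

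The 8 endothelial genes were also read against one another, a measure in which the scaling of an array cancels; it was added after the values had been seen and carries no test. Each gene's class difference was set against the mean of the other 7. Emcn was 1.11 above the others, Tek 0.40 and Flt1 0.32 above, Cdh5 within 0.061, and Kdr, Eng, Tie1 and Pecam1 0.29, 0.41, 0.53 and 0.55 below. Emcn kept its place in each jaw bone by itself: relative to the ilium it was 1.12 above the others in the maxilla and 0.72 above in the mandible, while in the femur it was 0.38 below. The Vegfa probe used followed the mean of the 8 within 0.053 in every bone, but the other 2 Vegfa probes were 0.40 above it in the maxilla.

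**Figure D3:**
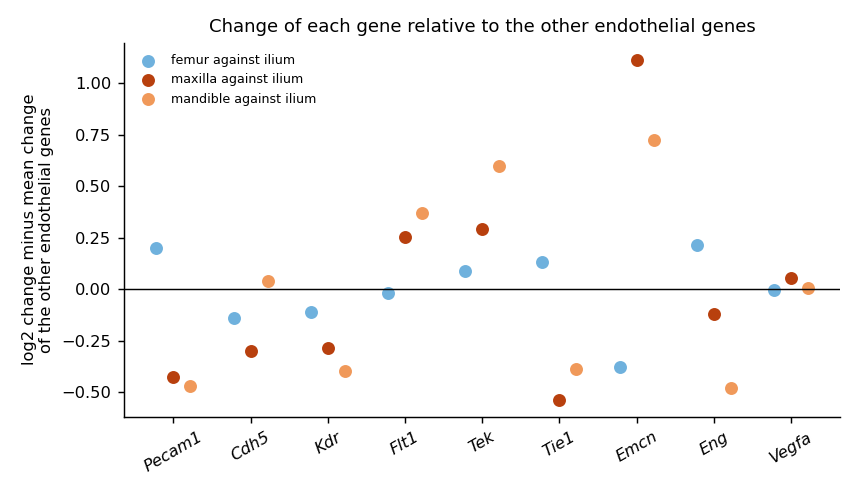
For each gene, the log2 change from the ilium to another bone minus the mean change of the other endothelial genes (vertical axis; Vegfa is set against all 8 of them); colours mark the femur, maxilla and mandible. Emcn has the highest points in the maxilla and the mandible (1.12 and 0.72), and the points of the Vegfa probe used lie within 0.053 of 0.

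The genes whose pattern over the 4 bones was nearest to that of Cdh5 were Nt5dc2, Clic5, Arhgef15, Smtn and the transcript ENSMUST00000042143, by the root mean square difference of values centred on their own mean, from 0.0389 to 0.0705, among 18403 other genes above background on all 4 arrays. By the same measure Vegfa ranked 59 (0.135), Kdr 141, Flt1 175, Tek 317, Tie1 406, Pecam1 704, Eng 926 and Emcn 8439 (0.563). With 4 points per gene, many genes come close by this measure.

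The rest of the VEGF and angiopoietin pathway was taken as a list of 16 ligands, receptors, modifiers and hypoxia factors. Limma called 1 lower and 0 higher, against 7.25% and 4.51% of all genes tested, and the median class difference was 0.58. At an unadjusted p under 0.05 there were 3 of 16, below the 34.4% of all genes. The gene called lower was Dok2, an adaptor that binds Tie2 and is also made in blood cells, with ilium and femur levels of 3.20 and 3.50 and jaw levels of 0.37 (maxilla) and 1.21 (mandible) (-2.56 ± 0.38, limma adjusted p = 0.0395). For 8 of the 16 both jaw bones were above both others and for 2 both were below, beside the 31.9% and 36.3% of all genes given above.

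Among the ligands, Vegfb differed by 0.58, Vegfc by -0.11, Vegfd by 1.13 and Pgf, placental growth factor, by 0.58, none of them called (limma adjusted p from 0.256 to 0.760). Vegfd was raised in the maxilla (-0.084) and not in the mandible (-1.71), against -2.01 in the ilium and -2.04 in the femur. Of these 4 ligand genes, Vegfd was the one in which the maxilla stood above the mandible.

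Angpt2, the angiopoietin released by endothelium under remodelling, read -0.081 in the ilium, -1.36 in the femur, with 0.84 in the maxilla and 1.19 in the mandible. Both jaw bones were above both others, with a class difference of 1.73 ± 0.52 (limma adjusted p = 0.111). Angpt1, the main activating ligand of Tie2, read -2.52, -2.42, -3.51 and -2.51 and so shared the low maxilla of its receptor (-0.54 ± 0.41, limma adjusted p = 0.418). Angpt4 ranged from -3.03 in the femur to 1.24 in the mandible (1.93 ± 1.26, limma adjusted p = 0.352). The Angpt2 and Angpt1 values thus lay on opposite sides in the maxilla, and neither class difference passed the threshold.

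Of the receptors and modifiers, Flt4 (VEGFR3) differed by -0.22, Nrp1 by 0.19, Nrp2 by 0.72, the phosphatases Ptprb by 0.18 and Ptpn11 by -0.59, and the adaptor Grb10 by 1.06, with 0 called. The oxygen-sensing factors Hif1a and Epas1, which drive VEGF-A transcription when oxygen is low, were above both trunk and limb bones in both jaw bones. Hif1a read 0.023 in the ilium, -0.095 in the femur, and 0.81 (maxilla) and 0.79 (mandible) in the jaw (0.84 ± 0.19, limma adjusted p = 0.0729), and Epas1 differed by 1.03 ± 0.39 (limma adjusted p = 0.163). Of 12 hypoxia target genes 0 were called, with a median of 0.40 and 3 of 12 at an unadjusted p under 0.05, again below the 34.4% of all genes. The 4 brightest were split: Ldha (-0.61) and Pgk1 (-0.61), both of glycolysis, were negative, and Ndrg1 (0.99) and Bnip3 (0.33) positive.

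Some genes of particular vessel types were called between the classes, and whether these lists differ from the 9 genes was not tested. The counts called in this and the following lists stand beside 7.25% of all genes tested called lower and 4.51% higher. Of 6 marrow sinusoid genes limma called 3 lower and 0 higher, with a median of -0.92. Stab2, a scavenger receptor that marks sinusoidal endothelium, read 0.66 in the ilium, 0.89 in the femur, with -1.77 in the maxilla and -2.18 in the mandible. Its class difference was -2.75 ± 0.25 (limma adjusted p = 0.0325), with no overlap, and its maxilla level was above that of the mandible.

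Vcam1, an adhesion molecule of sinusoids that stromal and myeloid cells also carry, read 3.83, 4.27, 1.61 and 2.01 (-2.25 ± 0.29, limma adjusted p = 0.0343). Lrg1, which neutrophils also make, read 3.99, 4.04, 1.62 and 2.00 (-2.20 ± 0.23, limma adjusted p = 0.0325). For all 3 called genes both jaw bones lay below both others, as for 36.3% of all genes tested. The calls rest on the same values, so this order is no added evidence. The other 3 sinusoid genes, Stab1 (0.36), Gpm6a (1.85) and Adamts5 (0.38), were not called.

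Of 6 venous genes 3 were called lower and 0 higher, with a median of -1.22. Ackr1, the chemokine receptor of venules that red cells also carry, read 0.99 in the ilium, 1.46 in the femur, and -1.21 (maxilla) and -1.20 (mandible) in the jaw (-2.43 ± 0.26). Selp, P-selectin, stored by venular endothelium and by platelets, read -0.46, 0.16, -2.89 and -2.77 (-2.69 ± 0.30). For each the 2 jaw bones were close to one another, and the limma adjusted p was 0.0325.

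Sele, E-selectin of activated endothelium, was at -4.03 in the ilium and -3.31 in the femur, and neither jaw bone had it well above background. Its ilium and femur mean was 5.81-fold above the lowest signal well above background on each jaw array, averaged over those arrays. That fold is not a strict bound, because a signal not well above background can exceed this floor. The class difference was -3.12 (limma adjusted p = 0.0325), but only -0.88 with normexp background correction. The other venous genes were higher or level: Ephb4 1.32, the venous identity factor Nr2f2 1.39 (limma adjusted p = 0.0505) and Aplnr -0.0081, none called.

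Of 10 arterial genes 2 were called higher and 0 lower, with a median of 0.17. Efnb2, ephrin-B2, which marks arterial endothelium and is also made by bone-forming cells and epithelium, read -1.23 in the ilium, -1.58 in the femur, with 0.69 in the maxilla and 1.25 in the mandible (2.37 ± 0.30, limma adjusted p = 0.0343). Hey1, a Notch target also active in osteoblasts, read 0.81, -0.053, 3.14 and 4.17 (3.28 ± 0.52, limma adjusted p = 0.0437). The Notch and arterial genes Dll4 (0.14), Gja4 (0.20), Gja5 (-0.20), Notch4 (-0.27) and Sema3g (-0.16) were not called, nor were Unc5b (1.81), Hey2 (1.37) and Bmx (-1.68). Of the 10 arterial genes 9 were highest in the mandible, against 27% of all genes tested.

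Osteoblast genes stood beside them with 0 of 9 called and a median of 0.92, and sums of 316, 267, 400 and 416 in ilium, femur, maxilla and mandible. The mandible was highest for 8 of these 9 as well. The epithelial markers given above were higher in the jaw as well. Their part in the Efnb2 and Hey1 values was not tested.

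In the further pan-endothelial list, 1 of 20 was called lower and 1 higher, with a median of -0.15. The gene called lower was Tal1, a transcription factor of blood and endothelial progenitors that erythroid and megakaryocytic cells express strongly (3.45, 3.97, 0.10 and 0.86; -3.23 ± 0.39, limma adjusted p = 0.0336). The gene called higher was Clec14a, an endothelial lectin, with -3.65, -3.54, -2.45 and -2.20 (1.27 ± 0.21, limma adjusted p = 0.0463). The maxilla was below the mandible for 18 of 20, against 54.5% of all genes, and 13 were lowest in the maxilla. Other lists had such counts too, with 9 of 9 megakaryocyte, 8 of 9 osteoblast and 7 of 7 muscle genes below the mandible in the maxilla. Its summed level was 91.7, 95.4, 59.0 and 85.9.

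Vwf, von Willebrand factor of endothelium and platelets, is named after its values were seen. It read 4.04, 4.55, 2.23 and 2.92 (-1.72 ± 0.36, limma adjusted p = 0.0642) and was not called.

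Most megakaryocyte, erythroid and neutrophil precursor markers were called lower in the jaw, against 7.25% of all genes tested. Of 9 megakaryocyte and platelet genes 9 were called lower and 0 higher (Pf4 -2.23, Ppbp -2.55, Gp9 -2.97 and Gp1ba -3.33), and their summed level was 133 in the ilium, 165 in the femur, and 22.9 (maxilla) and 31.5 (mandible) in the jaw. Of 6 tested erythroid genes 6 were called lower, with sums of 257, 284, 30.9 and 47.0. Of 7 neutrophil precursor genes 5 were called lower, with sums of 495, 487, 214 and 128, and of 8 monocyte and macrophage genes 2, Itgam and Ly86, while Cd14 differed by 1.31 and was not called. Blood stem cell genes did not share this direction: their median was 0.36, and 3 of 8 differences were negative. All the tested blood cell markers of these 5 lists were well above background in all 4 bones, and their part in the Stab2, Vcam1, Lrg1, Selp, Sele, Ackr1, Tal1 and Dok2 differences was not tested.

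**Figure D4:**
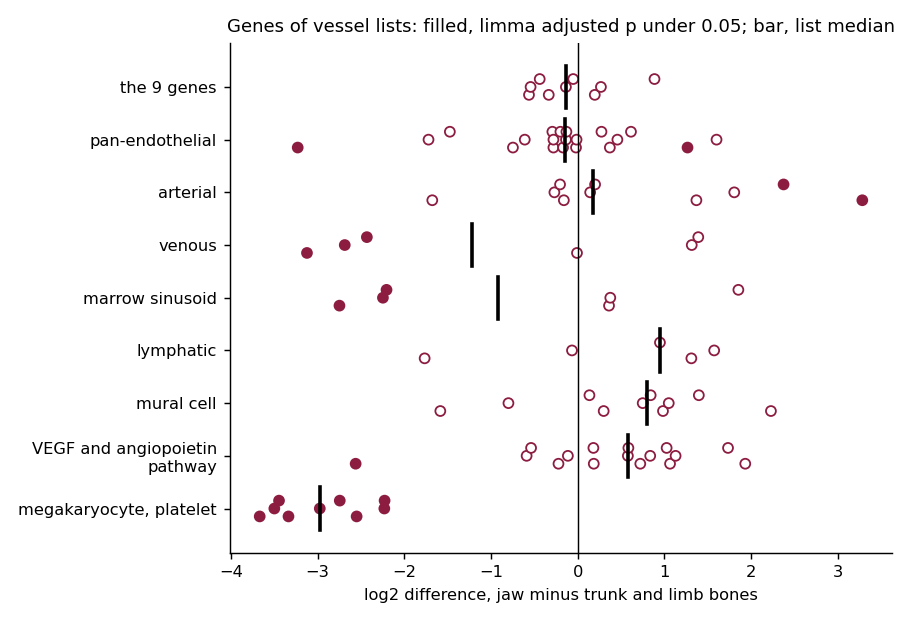
Jaw minus trunk and limb log2 difference (horizontal axis) of every tested gene in 9 lists (rows); filled points passed the limma threshold of 0.05, and black bars are list medians. Sinusoid and venous lists have 3 filled points each below -2, the arterial list has 2 above 2, and the 9 genes have none.

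Mural cells and lymphatic vessels gave no calls. Of 10 genes of pericytes and vascular smooth muscle, 0 were called, with a median of 0.80 and 2 of 10 at an unadjusted p under 0.05, against 34.4% of all genes. Acta2, smooth muscle actin, differed by -1.58, Tagln by 2.23, the pericyte receptor Pdgfrb by 0.98 and Kcnj8 by 0.75, and for 8 of the 10 the maxilla was below the mandible. Of 5 lymphatic genes 0 were called, with 3 of 5 at an unadjusted p under 0.05, against the same 34.4% (Mmrn1 -1.76, Reln -0.066, Lyve1 0.95 and Pdpn 1.57 among the 4 brightest). Mmrn1 is also a platelet gene. Of 6 cartilage genes 1, Sox9, was called higher.

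The class calls rested on both trunk and limb bones. For every gene called in the vessel and pathway lists, the values of the 2 classes did not overlap. Leaving out a bone could therefore not turn its direction, and a kept direction adds no support. Of the 11 genes called in the vessel and pathway lists, 11 kept their direction without the ilium or without the femur, but 0 of the 11, and 0 of all 20616 genes, passed limma then (3550 and 2628 of all genes at an unadjusted p under 0.05; adjusted p for the 11 from 0.235 to 0.395). All 11 were called without the maxilla and without the mandible, in fits that called 29.9% and 39.8% of all genes, against 11.8% with all 4 bones. Other settings ended some calls: Clec14a with quantile normalization, median centring, the series table or no filter on dim genes (limma adjusted p from 0.0702 to 0.112), Hey1 with the last 3 of these (0.0524 to 0.0594), Efnb2 with the series table (0.0502), Dok2 and Vcam1 with no filter (0.0552 and 0.05003), and Sele with normexp background correction (-0.88, limma adjusted p = 0.115). Stab2, Lrg1, Ackr1, Selp and Tal1 were called in every setting but those without the ilium or the femur.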

How the data were processed

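RNA from 4 bones was hybridised to 4 single-colour arrays of 1 slide. The deposited intensity values are Agilent Feature Extraction 9.5.3.1 processed signals, background-subtracted and detrended by the authors' scanner software, per the file headers and the submitters' processing notes. The log2 values of the deposited series table, made in GeneSpring per the series description, served as an alternative. Probe positions are on mm8, per the file headers.

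Control spots and single outlier spots were left out, log2 signals were scaled to the array's 75th percentile, and spots of a probe were averaged. Of 41174 probes, 24375 were named by RefSeq accession, 6301 by current symbol, 2426 by older symbol and 8072 by the file's name. The probe with the highest mean stood for a gene. The 20616 genes well above background (at least 0.5 of the spots) on at least 2 arrays were tested with limma 3.58.1 in R 4.3.3 (lmFit, eBayes, Benjamini-Hochberg over all genes, threshold 0.05, 2 residual and 1.757 prior degrees of freedom, prior SD 0.2751). The script was tested on simulated data. Differences within a class have no test and were counted at 2-fold. Alternatives were normexp (offset 50), quantile normalization, median centring, the series table, other background filters, outlier rules and probe rules, and leaving out each bone.

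Named were the 9 genes, the whole VEGF and angiopoietin list, and of other lists the called genes or, with over 4 or under 2 called, the 4 brightest; other genes named from a list were chosen after their values were seen. For several blood cell, bone and epithelium lists only counts or some of these genes are given. The members and lists were chosen with earlier results of these data known. The calls in 1 list, blood stem cell genes, are not reported here.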

Additional observations from a re-analysis of the deposited data

How the results depend on the processing

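Median centring and the series table moved the median class difference of all genes from -0.027 to -0.28 for both, and quantile normalization changed the calls as well: 929 higher and 1494 lower became 603 and 1647 with median centring, 575 and 1540 with the series table, and 600 and 1316 with quantile normalization. Signs turned for Flt1 (-0.055 with median centring, -0.057 with the series table, -0.30 without the mandible against 0.70 without the maxilla), Vegfa (0.0057 with quantile normalization, 0.098 as a mean over probes, 0.056 without the ilium, 0.37 without the maxilla against -0.47 without the mandible), Cdh5 (0.029 without the ilium, 0.46 without the maxilla), Kdr (0.062 without the maxilla) and Tek (-0.31 without the mandible against 0.85 without the maxilla). These differences were not called in any of those fits.

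The number of genes at least 2-fold lower in the maxilla than in the mandible was 1 with normexp and 7 with median centring or the series table, where the median gap was -1.11 and -1.13. The gap of the 9 genes beyond that of all genes was -0.79 in the reported analysis. Median centring moves each array by a constant, which cancels in this gap, so its equal value is no check. The series table gave -0.79 as well. For each of the 9 genes its maxilla and mandible difference lay nearly the same step from that with median centring. Such a step cancels in the gap, so this value is no check either. Elsewhere the gap was -0.89 with normexp, -0.77 with quantile normalization, -0.97 with no filter on dim genes and -0.73 as a mean over probes. Called arterial genes numbered 1 with median centring, 0 with the series table and 1 with no filter on dim genes; called pathway genes numbered 0 with no filter, and pan-endothelial genes called lower numbered 2 as a mean over probes. The cause was not tested.

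Leaving out 1 bone at a time gave 0 to 2 of the 9 genes called lower, 3 to 8 negative differences, medians from -0.73 to 0.37 and medians beyond all genes from -0.70 to 0.43. It gave 0 to 1 of the 9 genes lower in the jaw by a gap of 2-fold between the nearest bones, 0 to 5 pan-endothelial, 0 to 3 venous, 0 to 3 sinusoid and 0 to 3 pathway genes lower, and 0 to 3 arterial genes higher. No paired analysis was possible because each bone has 1 array.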
